A study of Sus scrofa with 12 samples.

Results

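The members described here are 451 probes of a 2-colour Agilent array whose ratio to undifferentiated cells lay close to the array's median in cells given control, F2RL2 or LGR4 siRNA, and moved at least 2.0-fold in cells given GPR124 siRNA. They make up 1.04% of the 43221 probes on the array. On the 3 GPR124 arrays 399 of them were higher than on the control arrays and 52 were lower. The members were chosen on these same values. The ratio used is the log2 of the processed Cy3 signal over the processed Cy5 signal, minus the median of that ratio over all non-control probes of the array. A member had a mean ratio between -0.5 and 0.5 with control siRNA, and its mean with F2RL2 siRNA and with LGR4 siRNA lay within 0.5 of the control mean. Its mean with GPR124 siRNA lay at least 1.0 from the control mean. It also had to be well above background in Cy3 on all 3 arrays of the higher of the control and GPR124 groups, and in Cy5 on all 3 control arrays. Without the bound on the GPR124 difference 13033 probes met these conditions, and 3.06% of those were higher members and 0.399% lower members. The members' differences between GPR124 and control are therefore given as a description, with no test.

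The cells were preadipocytes, the precursors of fat cells, from subcutaneous fat of female pigs. The Cy3 channel of each array held the RNA of siRNA-treated cells after 4 days of differentiation, and the Cy5 channel held RNA of untransfected cells at day 0, which served as 1 common reference. The 4 groups of 3 arrays received a commercial non-targeting control siRNA or an siRNA designed against F2RL2, LGR4 or GPR124. All groups were differentiated in the same high-glucose medium with 5 µg/ml insulin, 0.25 µM dexamethasone, biotin, pantothenate and 5 mM octanoate, after growth in low-glucose medium with 10% serum. A ratio near 0 thus describes a probe whose position relative to the median probe was similar in differentiated and undifferentiated cells. The labels do not say how many siRNAs were used for a target or whether the arrays of a group came from separate cultures, and the dyes were not swapped.

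GPR124, also called ADGRA2, is an adhesion G protein-coupled receptor that acts with the membrane protein RECK as a co-receptor for particular Wnt ligands and is best known from blood vessel growth in the brain. LGR4 is a receptor for R-spondins, which strengthen Wnt signalling, and F2RL2 is a protease-activated receptor. When preadipocytes are given insulin, a glucocorticoid and a fatty acid, the factors PPARG and C/EBP alpha switch on genes of lipid storage and genes of the precursor state decline, and canonical Wnt signalling is known to hold this change back. No probe could be paired with a gene here (0 of 43221), so the knockdown of GPR124, the fat cell markers and the functions of the members could not be examined, and probes are named by their identifiers.

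All arrays were hybridised with 400 ng of labelled RNA for each dye, and no spot was saturated. The 4 arrays on a slide did not hold the groups evenly: slide 1 held the control arrays and F2RL2 replicate 1, slide 2 held F2RL2 replicates 2 and 3 with LGR4 replicates 1 and 2, and slide 3 held LGR4 replicate 3 with the 3 GPR124 arrays. No slide held both control and GPR124 arrays. Outlier spots, as marked by the scanner software, numbered 154 to 280 per GPR124 array and 335 for LGR4 replicate 3, against 1 to 4 for the others. In Cy5, which carried the same kind of reference on every array, 23594 to 26485 probes were well above background on the GPR124 arrays and 27003 to 32394 on the rest. Correlations between arrays of a group were 0.885 to 0.945 for GPR124 siRNA, 0.914 to 0.955 for LGR4 siRNA, 0.92 to 0.937 for F2RL2 siRNA and 0.973 to 0.981 for control siRNA. The part of slide and of these array differences in the members' values cannot be told apart from that of the siRNA by comparing GPR124 with control directly. Values within slide 3 are given further on.

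The higher members are illustrated by the pair with the largest GPR124 differences among those well above background in both channels on all 12 arrays. The choice also required the 3 GPR124 arrays to lie outside the range of the other 9, so that separation is no result. AGPOA3-00696 had log2 ratios of -0.041, 0.093 and -0.030 on the control arrays, -0.031, -0.29 and 0.066 with F2RL2 siRNA, -0.31, -0.21 and -0.10 with LGR4 siRNA, and 2.03, 2.19 and 2.44 with GPR124 siRNA. The 3 GPR124 arrays were far above the other 9, which lay around the array median. Its mean ratio was 2.22 ± 0.21 (SD, n = 3) with GPR124 siRNA and 0.0076 ± 0.075 (SD, n = 3) with control siRNA, a difference of 2.21 (SE 0.14) or 4.62-fold. As the RNA came from whole cultures, a change in the number of cells that hold a transcript and a change in its amount per cell cannot be told apart, here or for any other member. AGPOA3-13314 had ratios of 0.10, 0.11 and 0.31 with control siRNA, 0.51, 0.068 and 0.59 with F2RL2 siRNA, 0.21, 0.63 and 0.47 with LGR4 siRNA, and 1.87, 2.10 and 2.46 with GPR124 siRNA. The other 9 arrays of this probe spread more widely than those of AGPOA3-00696, and by the choice none of them reached a GPR124 array. The GPR124 mean of AGPOA3-13314 was 2.14 ± 0.30 (SD, n = 3), 1.97 (SE 0.19) above control or 3.91-fold.

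The lower members are illustrated by the pair chosen in the same way. AGPOA3-00050 had ratios of -0.17, -0.11 and -0.0011 with control siRNA, -0.82, -0.31 and -0.40 with F2RL2 siRNA, 0.078, 0.015 and 0.030 with LGR4 siRNA, and -1.95, -2.41 and -2.49 with GPR124 siRNA. The GPR124 arrays lay lowest, and the F2RL2 arrays lay between them and the rest. The mean with GPR124 siRNA was -2.28 ± 0.29 (SD, n = 3), and the difference from control was -2.19 (SE 0.17), or 4.56-fold lower. AGPOA3-16845 had ratios of 0.11, 0.069 and 0.11 with control siRNA, 0.22, -0.21 and 0.19 with F2RL2 siRNA, -0.35, -0.18 and -0.22 with LGR4 siRNA, and -1.80, -1.65 and -1.77 with GPR124 siRNA. Its GPR124 arrays were close to each other and far below the other 9. The GPR124 mean of -1.74 ± 0.080 (SD, n = 3) was -1.84 (SE 0.12) from control, or 3.58-fold lower.

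Most of the 399 higher members moved little more than the bound that chose them. Their median difference between GPR124 and control was 1.13, or 2.18-fold, with quartiles at 1.06 and 1.27. A difference between 1.0 and 1.2 was found for 257 of them, between 1.2 and 1.5 for 109, between 1.5 and 2.0 for 27, and of 2.0 or more for 6. Of those 6, 5 were not well above background in both channels on all arrays. The bound therefore cut through a dense region: 157 higher members lay between 1.0 and 1.1, and 237 probes that met every other condition lay just outside, between 0.9 and 1.0. The smallest difference among them was 1.00 and the largest outside was 0.998.

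The higher members had a median ratio of -0.20, -0.21 and -0.11 on control replicates 1 to 3, -0.10, -0.29 and 0.046 on F2RL2 replicates, -0.26, -0.11 and -0.10 on LGR4 replicates, and 0.95, 1.00 and 1.15 on GPR124 replicates. All 9 arrays of the other siRNAs were thus near 0 or slightly below, and every GPR124 array was near 1.0. The control mean was below 0 for 280 of the 399 and above 0 for 119, with a median of -0.17. The median over the 13033 probes that met the other conditions was 0.0026. The control mean is part of the difference that chose the members, which favours low control means among the higher members. Nothing is read from this contrast. The F2RL2 difference from control had a median of 0.058 and the LGR4 difference one of 0.0036, both within the bound of 0.5 set for single probes. These comparisons share the control arrays.

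The GPR124 replicates were not alike in size. The median difference of the higher members from the control mean was 1.09 on GPR124 replicate 1, 1.13 on replicate 2 and 1.26 on replicate 3. Replicate 3 was the highest of the 3 for 269 of the 399. With replicate 3 left out, 98 of the higher members no longer reached a difference of 1.0, against 38 without replicate 1 and 34 without replicate 2. The SD over the GPR124 arrays had a median of 0.16 for the higher members, against 0.083 over the control arrays, 0.20 over the F2RL2 arrays and 0.12 over the LGR4 arrays. It was under 0.25 for 297 members and over 0.5 for 13.

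The 3 GPR124 arrays lay above all 9 others for 383 of the 399 higher members (96.0%). The same held for 30.6% of the 32346 probes kept for testing, for which 1 channel or the other was well above background on 3 or more of the 12 arrays. The rule used this contrast, and nothing is read from the count. For the other 16 members at least 1 of the 9 arrays overlapped the GPR124 arrays.

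The 52 lower members moved further from control than the higher members at the median and varied more between the GPR124 arrays. Their median difference was -1.25, or 2.37-fold lower, and it ranged from -2.19 to -1.001. In size it lay between 1.0 and 1.2 for 22 of them, between 1.2 and 1.5 for 24, between 1.5 and 2.0 for 4, and at 2.0 or more for 2. Just inside the bound, to -1.1, lay 13 lower members, and 20 probes lay just outside, between -1.0 and -0.9, the nearest at -0.989. As for the higher members, more probes lay just outside the bound than just inside it, though the numbers were smaller.

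The lower members had median ratios of 0.091, 0.068 and 0.029 on control replicates 1 to 3, 0.022, 0.024 and 0.26 on F2RL2 replicates, 0.049, 0.043 and -0.063 on LGR4 replicates, and -0.98, -1.27 and -1.35 on GPR124 replicates. GPR124 replicate 1 was the least extreme, as it was for the higher members. The 3 GPR124 arrays lay below all 9 others for 45 of the 52 (86.5%), against 4.49% of the 32346 probes kept, again for a contrast the rule used. The SD over the GPR124 arrays had a median of 0.26, against 0.087 over the control arrays, and was over 0.5 for 7 lower members and under 0.25 for 24. Without replicate 1, 2 or 3 of GPR124, respectively 1, 10 and 10 of them no longer reached the bound.

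A spot that is not well above background gives only a bound on a ratio. Among the higher members, Cy5 was well above background on all 3 GPR124 arrays for 322 and on none of them for 21. Those 322 had a median difference of 1.11. Among the lower members, Cy3 was well above background on all 3 GPR124 arrays for 35, on some of them for 11 and on none for 6, and for 3 of those 6 Cy5 did not stand above background there either, so that the size of the difference is not known. For the other 3 it has only a lower bound. The 35 had a median difference of -1.25, close to that of all 52. Both channels were well above background on all 12 arrays for 321 higher and 35 lower members.

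The number of higher against lower members depended on where each array was centred. On the scale of the rule, the median difference between GPR124 and control was 0.31 over the 13033 probes that met the other conditions, and 0.34 over the 21172 probes well above background in both channels on every array. For the latter probes the F2RL2 difference was 0.084 and the LGR4 difference was -0.022. At the median, either set of probes was thus shifted upward on the GPR124 arrays on this scale. Each array was centred on the median over all probes, dim ones included. The medians subtracted were 0.118, 0.141 and 0.087 on control replicates 1 to 3 and -0.253, -0.152 and -0.214 on GPR124 replicates. On the F2RL2 and LGR4 arrays they were between -0.089 and 0.151. Subtracting them raised every probe's difference between GPR124 and control, which adds to the higher members' differences and makes the lower members' smaller in size. Relative to the median of the 13033 probes, the higher members were up by 0.82 at the median and the lower members were at -1.56.

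When the same bounds were applied to median signals corrected by normexp and normalised by loess within each array, 53 probes were higher and 128 lower, a higher share of 29.3% in place of 88.5%. Both the signals and the normalisation differ there from the rule's scale: the normexp-corrected signals with median centring gave 63 higher and 19 lower. Of the 53 and 128 probes after loess, 26 and 32 were members. With processed signals and no centring the counts were 95 higher and 188 lower (33.6% higher). Centring on the probes well above background on every array, chosen after the data were seen, gave 88 and 202 (30.3% higher). For ratios centred on the median over all probes, more probes were higher than lower on either kind of signal. Fewer were higher than lower with loess, with no centring and with the bright probes as the centre. In Cy3 alone, also centred on the median over all probes, 50 were higher and 545 lower.

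The members were chosen for a difference of 1.0 on the same arrays, which goes far to fix their direction on another scale. After loess, all 399 higher members had a difference above 0, with a median of 0.70 and a range from 0.098 to 1.77, and 26 of them still reached 1.0, where 1.85% of the 32344 probes with a value did. All 52 lower members had a difference below 0, with a median of -1.33 and a range from -2.21 to -0.40, and 36 of them reached -1.0, where 2.69% of those probes did. The median over the 13033 probes was -0.0020 on that scale. The higher members were therefore smaller after loess at the median and the lower members slightly larger. The 4 named probes had loess differences of 1.77 for AGPOA3-00696 (SE 0.10), 1.23 for AGPOA3-13314 (SE 0.15), -2.21 for AGPOA3-00050 (SE 0.13) and -2.05 for AGPOA3-16845 (SE 0.11). Of these, AGPOA3-13314 moved most with the scale.

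The channels differed between the higher and lower members. With each channel centred on its own array median, Cy3, the transfected cells, was higher by 0.61 at the median of the higher members, and Cy5, the day 0 reference, was at -0.22. For the lower members Cy3 was at -1.85 and Cy5 at -0.27. Among the 13033 probes Cy3 was at -0.22 and Cy5 at -0.21, so that relative to them the higher members were at 0.83 in Cy3 and -0.015 in Cy5, and the lower members at -1.63 and -0.063. At the median, the members' difference from these probes was thus in Cy3.

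By single members, the Cy3 difference was above 0 for 395 of the 399 higher members and at least 1.0 for 34. For the lower members it was below 0 for all 52 and at -1.0 or lower for 51. Over the 32346 probes kept it was above 0 for 11778, at least 1.0 for 1840, below 0 for 20568 and at -1.0 or lower for 3481. The Cy5 difference was larger in size than the Cy3 difference for 71 higher members and 0 lower members. Over the 32346 probes kept the Cy5 difference was the larger for 36.5%. Cy3 is part of the ratio that chose the members, so nothing is read from these counts. AGPOA3-00696 had a Cy3 difference of 1.64 and a Cy5 difference of -0.24, and AGPOA3-13314 had 1.42 and -0.22. AGPOA3-00050 had -2.84 in Cy3 and -0.33 in Cy5, and AGPOA3-16845 had -2.24 and -0.081. For each of the 4 named probes the Cy3 difference was larger in size than the Cy5 difference. The channels were centred separately, so these values do not add up to the difference of the centred ratio.

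Among the 13033 probes that met the other conditions, the higher members were most frequent at low levels and the lower members at both ends of the range. The median Cy5 level on the control arrays (log2, centred on the array median) was 1.93 for the higher members, 4.05 for the lower members, 3.28 for the 13033 probes and 1.68 for the 32346 probes kept, so that 314 of the 399 higher members lay above the array median. When the 13033 probes were divided by this level into 5 classes of equal size, the higher members numbered 139, 91, 80, 56 and 33 from the dimmest to the brightest class, or 5.33%, 3.49%, 3.07%, 2.15% and 1.27% of the class. The lower members numbered 15, 5, 6, 9 and 17, or 0.575%, 0.192%, 0.23%, 0.345% and 0.652%. The share of higher members thus went down with brightness at each step, and lower members were fewest in the second class.

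The median difference of all probes in a class was 0.33 in the dimmest and 0.30 in the brightest on the rule's scale. The shift of these probes was thus nearly the same in every class. Probes that did not meet the other conditions are not in the classes. After loess the higher members had medians of 0.56, 0.67, 0.76, 0.78 and 0.74 from the dimmest class to the brightest, and the lower members had -0.58, -1.29, -1.21, -1.36 and -1.57. The dimmest members of either direction had the smallest differences on that scale. There, an offset of 50 was added to the corrected signals of both channels, which draws the ratios of dim spots towards 0. Nothing about the members is therefore read from this order. The 36 lower members that still reached -1.0 after loess had a median reference level of 5.14, and the other 16 one of -0.24. The part of low signal in these 16 was not tested.

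Slide 3 held all GPR124 arrays and LGR4 replicate 3, and values within it can be set side by side on 1 slide. On the rule's scale the 3 GPR124 arrays all lay above LGR4 replicate 3 for 397 of the 399 higher members (99.5%; 64.2% of the 32346 probes kept) and below it for 46 of the 52 lower members (88.5%; 14.4% of the probes kept). LGR4 replicate 3 entered the rule as part of the LGR4 mean, which was held within 0.5 of control, so the rule goes far to fix this separation and nothing is read from it. On this array the higher members' ratio differed from that on LGR4 replicates 1 and 2 by 0.058 at the median and the lower members' by -0.12.

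On the loess scale the GPR124 arrays differed from LGR4 replicate 3 by a median of 0.61 over the 397 higher members with a value there, of which 396 were above 0, and by -1.22 over the lower members, all 52 of them below 0. Of the 32099 probes kept with a value there, 15947 were above 0 and 16152 below. The rule goes far to fix the members' direction, so nothing is read from these counts. Over all LGR4 arrays the members' medians were 0.65 and -1.26. The named probes had differences within slide 3 of 1.80 for AGPOA3-00696, 0.94 for AGPOA3-13314, -2.33 for AGPOA3-00050 and -1.82 for AGPOA3-16845. The within-slide differences rest on 1 LGR4 array.

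With slide as a block in the loess fit, GPR124 and control were linked only through the F2RL2 and LGR4 arrays. The higher members then had a median difference of 0.74, above 0 for 395 of the 397 that could be fitted. The lower members had one of -1.22, below 0 for all 52. Of the 32096 probes kept with a value, 16620 were above 0 and 15476 below. The members were chosen on these same arrays, with F2RL2 and LGR4 held near control, which goes far to fix their direction. Nothing is read from these counts. For the named probes the blocked differences were 1.80 for AGPOA3-00696 (SE 0.24), 1.36 for AGPOA3-13314 (SE 0.35), -2.47 for AGPOA3-00050 (SE 0.26) and -1.74 for AGPOA3-16845 (SE 0.19). Over the whole table the block reduced the probes that passed a limma adjusted p of 0.05. They went from 39.4% of 32344 (22.5% higher and 16.9% lower) to 4.13% higher and 3.78% lower of 32096. Of the higher members, 389 of 399 passed as higher without the block and 133 of 397 with it. Of the lower members, all 52 passed as lower without the block and 35 with it. The members were chosen on this contrast, so their counts test nothing.

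The Cy5 level was lower on slide 3 for the higher members and for the 13033 probes alike. The median centred Cy5 level of the higher members was 1.66, 1.72 and 1.77 on the GPR124 arrays and 1.68 on LGR4 replicate 3, against 1.91 to 1.92 on the control arrays and 2.07 and 2.14 on LGR4 replicates 1 and 2. The 13033 probes had 2.99, 3.05 and 3.11 on the GPR124 arrays and 2.97 on LGR4 replicate 3, against 3.27 to 3.29 on the control arrays and 3.25 and 3.35 on LGR4 replicates 1 and 2. The part of this difference in the members' ratios was not tested.

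The members were spread over the whole array. In 5 bands of array rows the higher members numbered 82, 68, 79, 96 and 74 and the lower members 10, 12, 9, 11 and 10. In 5 bands of columns they numbered 63, 92, 77, 98 and 69, and 13, 10, 10, 9 and 10. No band held most of them.

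F2RL2 siRNA and LGR4 siRNA were compared directly in the limma fit, a contrast without control or GPR124 arrays. The rule bounds its size on the rule's scale, since both groups had to lie within 0.5 of control. Of the 399 higher members 8 were higher with F2RL2 siRNA than with LGR4 siRNA, 28 were lower and 363 did not pass. The 36 that passed make up 9.02%, against 13.9% of the 32346 probes tested (5.55% higher and 8.38% lower) and 7.14% of the 13033 probes that met the other conditions. Of the 52 lower members 4 were higher, 2 were lower and 46 did not pass, so that 11.5% did. These shares are near those of the 13033 probes, and nothing particular to the members is read from them.

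AGPOA3-00050 was the only one of the 4 named probes to pass, at -0.61 for F2RL2 minus LGR4 (limma adjusted p = 0.00686), and on the rule's scale each of the 3 F2RL2 arrays lay below each of the 3 LGR4 arrays. It did not pass on centred processed signals (-0.55, limma adjusted p = 0.059), in Cy3 alone (-0.50, limma adjusted p = 0.116) or within slide 2 (-0.53, limma adjusted p = 0.0922), and over all alternatives the limma adjusted p was 0.00224 to 0.116. The limma adjusted p of AGPOA3-00696 was 0.98, that of AGPOA3-13314 was 0.70 and that of AGPOA3-16845 was 0.21. Those probes did not pass.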

How the data were processed

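The 12 arrays were analysed. Spot intensity columns were deposited as Agilent Feature Extraction wrote them; per the file headers the processed signal intensity is background-subtracted and dye-normalised, while median spot and background intensity are not normalised. The authors' deposited value table holds log2 ratios equal to log2 of processed Cy3 over Cy5 within 5e-10, with no further centring.

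Members were found on processed signals as the report states. For tests, median signals were corrected by normexp (offset 50) and normalised by loess within arrays with the 1417 control spots at weight 0. Outlier spots were left out, and 32346 probes were kept. limma 3.58.1 in R 4.3.3 was fitted over all 12 arrays with Benjamini-Hochberg adjustment (threshold 0.05). The fit was tested on simulated data. The simulated noise was independent between arrays and held no slide effect, so that test does not cover the slide layout here. Medians and counts were made with numpy 2.4.6 and pandas 2.3.3.

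The members, lists and tests were chosen with earlier results of these data known. Named are the 2 higher and 2 lower members with the largest difference among those well above background in both channels on all 12 arrays and with GPR124 arrays outside the other 9. Lists of genes could not be used, as no probe was paired with a gene, and no probe sequence was used here. Separate cultures are not stated for the replicates, and a p-value here therefore reflects array-to-array spread alone, possibly technical. The F2RL2 target is spelled R2RL2 in another label field, and titles were followed. The number of arrays limits the precision. Same-numbered arrays deviated together in all 3 pairs of LGR4 with GPR124 (correlations 0.22 to 0.537). The labels state no pairing and these correlations do not establish one. The main fit therefore used no pairing, and the replicate block was tried as an alternative. No other pair of groups had all 3 correlations over 0.1. The alternatives tried were other background correction, centring and channels, other bounds and filters, slide and replicate blocks, and leaving out each array.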

Additional observations from a re-analysis of the deposited data

How the results depend on the processing

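The number of higher members (399) was 53 with normexp and loess, 63 with normexp and median centring, 50 in Cy3 alone, 95 without centring, 33 with a bound of 1.5 on the GPR124 difference, 218 with F2RL2 and LGR4 within 0.25 of control and 210 with a control ratio within 0.25. For the lower members (52) the same settings gave 128, 19, 545, 188, 6, 23 and 31, and no filter on background gave 82. Chosen after the data were seen, centring on probes well above background on every array gave 88 and 202, and loess with a stricter filter 36 and 126. Leaving out 1 array gave 326 to 536 and 45 to 78. A stricter filter, outlier spots left out and slide as a block stayed within 1.5 times for both counts. With the slide block, however, only 232 of 407 and 32 of 60 probes were members. The authors' value table holds the same ratios as the rule before centring, so it could only give the same counts.

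The median difference of the higher members (1.13) was 0.70 with loess, 0.90 with normexp and median centring and 0.61 in Cy3 alone, and that of the lower members (-1.25) was -0.998 with normexp and median centring and -1.85 in Cy3 alone. Leaving out 1 array gave 1.08 to 1.18 and -1.31 to -1.15.

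GPR124 against control gave 12748 calls, 2540 with slide as a block and 10445 to 13561 with 1 array left out. On centred processed signals 13731 of the calls were higher and 2508 lower, against 7266 and 5482 after loess. F2RL2 against LGR4 gave 4504 calls, 1377 with median centring, 2427 in Cy3 alone, 2602 with slide as a block, 1120 on slide 2 alone, 2948 without F2RL2 replicate 3 and up to 5090 without another array. GPR124 against LGR4 gave 12139 calls, 7363 with median centring, 7733 with slide as a block, 3713 on slide 3 alone and 10080 to 12632 with 1 array left out.

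Same-numbered arrays correlated over 0.1 in their deviations in 7 of 18 pairs (range -0.575 to 0.537), and 2 of 6 control and GPR124 arrays correlated best with their own number. Every group held the same replicate numbers, so a replicate block cannot alter a difference of group means on the rule's scale. The members therefore stayed 399 and 52, with medians of 1.13 and -1.25, and nothing is read from this. With the block the calls were 11904, 3773 and 11304. The block changed none of these numbers of calls by over 1.5 times, GPR124 against LGR4 included, whose same-numbered arrays deviated together. Signal over background limits 21 higher and 3 lower members to a bound and gives no size for 3 more lower members. Another 56 higher and 11 lower members were measured on only some GPR124 arrays.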
